A study of Mus musculus with 4 samples.

Results

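Nlrc5, the transactivator of major histocompatibility complex (MHC) class I genes, was examined together with 9 of its known targets in antigen presentation: B2m, Tap1, Tap2, Tapbp, Psmb8, Psmb9, Psmb10, H2-D1 and H2-K1. Every probe set (a group of probes on the array that reports 1 transcript) annotated to exactly 1 of these 10 symbols was taken, which gave 18 of 45037 probe sets, for 7 of 17097 measured genes. No probe set in the annotation used here was named for B2m, Tap1 or Tap2, so these 3 were not analysed here. The genes were chosen by name as Nlrc5 and its targets, but with the knockout-minus-wild-type values of these same arrays already known. Their values in that contrast are therefore given as a description, without a test.

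The arrays came from whole inguinal mammary gland of mice at postnatal day 10. Both genotypes were littermates on a congenic C57Bl/6J background: 2 arrays of Mt2-mmp(-/-) mice, which lack the gene in every tissue (knockout), and 2 of Mt2-mmp(+/+) mice (wild type). Mt2-mmp, now named Mmp15, encodes a membrane-anchored matrix metalloproteinase. The arrays are labelled as biological replicates, and how many mice went into each is not given in the sources used here. All values are deposited log2 values after RMA (a normalization that brings the arrays to one distribution), with n = 2 arrays per genotype.

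Class I molecules display peptides from inside the cell to CD8 T cells. The immunoproteasome cuts proteins into peptides, the Tap1 and Tap2 transporter carries these into the endoplasmic reticulum, tapasin (Tapbp) bridges the transporter to an empty class I molecule, and the heavy chain (H2-K1 or H2-D1) reaches the cell surface paired with beta-2-microglobulin (B2m). Nlrc5 does not bind DNA by itself. It is recruited by RFX, CREB or ATF1 and NF-Y proteins to a conserved promoter module whose X2 and Y boxes lie a fixed distance apart, and interferon gamma induces Nlrc5 itself.

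The promoters of 5 targets, of which 3 hold the X2 and Y letters at one spacing and 2 do not, are printed from RefSeq (GRCm38.p6) as windows of 300 bases, 250 before and 50 after the annotated start. A window was given for 8 of the 10 genes. None was given for Nlrc5 or Tap2. Capitals mark matches on either strand to any of 5 short motifs, chosen with the sequences in view: the Y box core CCAAT, the X2 half-site TGACG, the interferon response element core TTTCNNTT, the STAT element TTCNNNGAA and the NF-kappaB element GGGANTNCC. No match of 1 motif overlapped a match of another in these windows. H2-K1 and H2-D1 are shown as the class I heavy chains, B2m as their partner, and Psmb9 and Psmb8 as the immunoproteasome genes with the largest differences below. The windows lie at chr17:34000298-34000597 (minus strand) for H2-K1, chr17:35262844-35263143 (plus strand) for H2-D1, chr2:122147437-122147736 (plus strand) for B2m, chr17:34187281-34187580 (minus strand) for Psmb9 and chr17:34197945-34198244 (plus strand) for Psmb8.
H2-K1: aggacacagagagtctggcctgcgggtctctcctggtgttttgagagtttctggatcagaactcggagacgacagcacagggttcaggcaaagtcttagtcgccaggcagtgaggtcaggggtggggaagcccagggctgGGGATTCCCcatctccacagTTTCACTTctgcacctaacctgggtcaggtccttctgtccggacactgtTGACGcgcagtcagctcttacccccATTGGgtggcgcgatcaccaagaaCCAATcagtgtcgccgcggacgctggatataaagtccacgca
H2-D1: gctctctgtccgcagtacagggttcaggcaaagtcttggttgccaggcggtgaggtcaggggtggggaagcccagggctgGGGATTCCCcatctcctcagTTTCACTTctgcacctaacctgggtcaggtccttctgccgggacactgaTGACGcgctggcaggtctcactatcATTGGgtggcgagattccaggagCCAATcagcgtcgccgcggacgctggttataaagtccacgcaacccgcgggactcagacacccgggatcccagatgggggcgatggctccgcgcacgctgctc
B2m: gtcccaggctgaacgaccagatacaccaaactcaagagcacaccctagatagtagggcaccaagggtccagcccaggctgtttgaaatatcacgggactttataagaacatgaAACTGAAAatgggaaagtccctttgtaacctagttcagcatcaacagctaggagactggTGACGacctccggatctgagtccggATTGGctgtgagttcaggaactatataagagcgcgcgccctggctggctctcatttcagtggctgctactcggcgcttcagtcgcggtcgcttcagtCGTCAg
Psmb9: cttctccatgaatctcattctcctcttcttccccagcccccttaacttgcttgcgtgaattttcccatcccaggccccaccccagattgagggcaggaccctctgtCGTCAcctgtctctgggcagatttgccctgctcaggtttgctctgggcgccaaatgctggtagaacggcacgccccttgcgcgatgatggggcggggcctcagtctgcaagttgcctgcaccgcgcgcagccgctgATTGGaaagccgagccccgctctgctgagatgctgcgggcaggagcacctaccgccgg
Psmb8: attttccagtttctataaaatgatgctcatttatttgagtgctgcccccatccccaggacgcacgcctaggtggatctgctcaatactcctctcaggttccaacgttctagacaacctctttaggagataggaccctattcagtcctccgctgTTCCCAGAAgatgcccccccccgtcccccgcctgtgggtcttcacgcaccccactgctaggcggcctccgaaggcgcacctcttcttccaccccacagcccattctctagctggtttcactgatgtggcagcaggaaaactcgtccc

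In H2-K1, H2-D1 and B2m the X2 half-site TGACG was followed by a Y box core read as ATTGG on the printed strand, with 25 bases between their first bases. This arrangement was found in 31 of the 32851 RefSeq promoter windows (0.0944%), and the windows of these 3 genes were 4 of the 31, because H2-K1 has 2 windows. The searched spacing was set to that of H2-D1, and the ATTGG reading to that seen in these windows. The matches of these genes were thus known before the count, and nothing is read from their share. Each motif alone was common, with CCAAT in 37.4%, TGACG in 20.8% and both in 7.73% of all windows. TTTCNNTT was in 23.9%, TTCNNNGAA in 8.3% and GGGANTNCC in 3.95% of windows. Psmb9 also held both motifs, but 136 bases apart. Its window shares 275 bases with that of Tap1, which is transcribed from the opposite strand, so the same matches are counted for both. Tapbp held the Y box core only, Psmb8 the STAT element only, and Psmb10 none of the 5. A match is a description of letters, not a site shown to be used.

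The whole data set has limits that touch these genes. No probe set was named for Mmp15 in the annotation used here, which did not list 15588 of the probe sets. The labels were therefore not checked against the targeted gene. The mammary keratin Krt8 lay between 9.01 and 9.47 and the adipocyte hormone Adipoq between 13.14 and 13.26 in all arrays, as in a fat pad with epithelium. Hair follicle genes set 2 arrays apart: Krt25, Krt27, Krt71 and Tchh had log2 values of 8.96 to 10.74 in knockout 1 and 8.30 to 10.47 in wild type 2, against 3.49 to 4.91 in knockout 2 and 3.99 to 4.75 in wild type 1. Each of these pairs holds 1 array of each genotype, so differences are given below also within each pair. Limma, a linear model fitted across all genes with Benjamini-Hochberg adjustment, called 1 of 17097 genes at an adjusted p under 0.05 (0.00585%; Gadd45gip1, named after its value was seen), and 0 of the 18 member probe sets in the fit over all probe sets. With 2 arrays in each group the smallest two-sided p of an exact permutation test is 0.333.

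Nlrc5 lay lower in both knockout arrays than in both wild-type arrays. Its only named probe set had log2 values of 6.24 and 6.84 in knockouts 1 and 2 and 7.65 and 8.0 in wild types 1 and 2. The genotypes did not overlap, and knockout 1 was the lowest array. The means were 6.54 ± 0.43 and 7.82 ± 0.25 (SD, n = 2 each), a log2 difference of -1.28 (SE 0.22), or 2.43-fold lower in knockouts. That difference stood at the 0.0351 percentile of all genes, and the range of Nlrc5 over the 4 arrays, 1.75, at the 99.6 percentile. Nothing is read from these percentiles, because the contrast was known when the genes were chosen. With 1 array left out the difference lay between -1.58 and -0.98. Within the pair of high hair follicle signal it was -1.75, and within the low pair -0.80.

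Nlrc5 lies on chromosome 8, as does Mmp15, with 19 measured genes between them, and a stretch of chromosome that passed along with the targeted allele cannot be told apart from the loss of Mmp15. The 5 measured genes on each side of Nlrc5 had smaller differences: 6 of these 10 lay below 0, 2 without overlap of the genotypes in the lower direction and 1 in the higher, and limma called 0 of them. Over all genes 19.4% were lower and 18.2% higher without overlap. Herpud1, an endoplasmic reticulum stress protein, was the nearest in size at -0.45 (SE 0.09). The others were Mt1 at -0.06, Nup93 at 0.10, Slc12a3 at -0.13, 9330175E14Rik at -0.03, Cpne2 at -0.09, Psme3ip1 at 0.01, Rspry1 at 0.11, Arl2bp at -0.13 and Pllp at 0.05. Slc12a3, 1 of the 2 lower neighbours without overlap, lay at 3.88 to 4.04, a level at which nonspecific control probe sets also lie. Psmb10 also lies on chromosome 8, on the far side of Mmp15 with 69 measured genes between. B2m is on chromosome 2 and the other members are on chromosome 17.

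**Figure D1:**
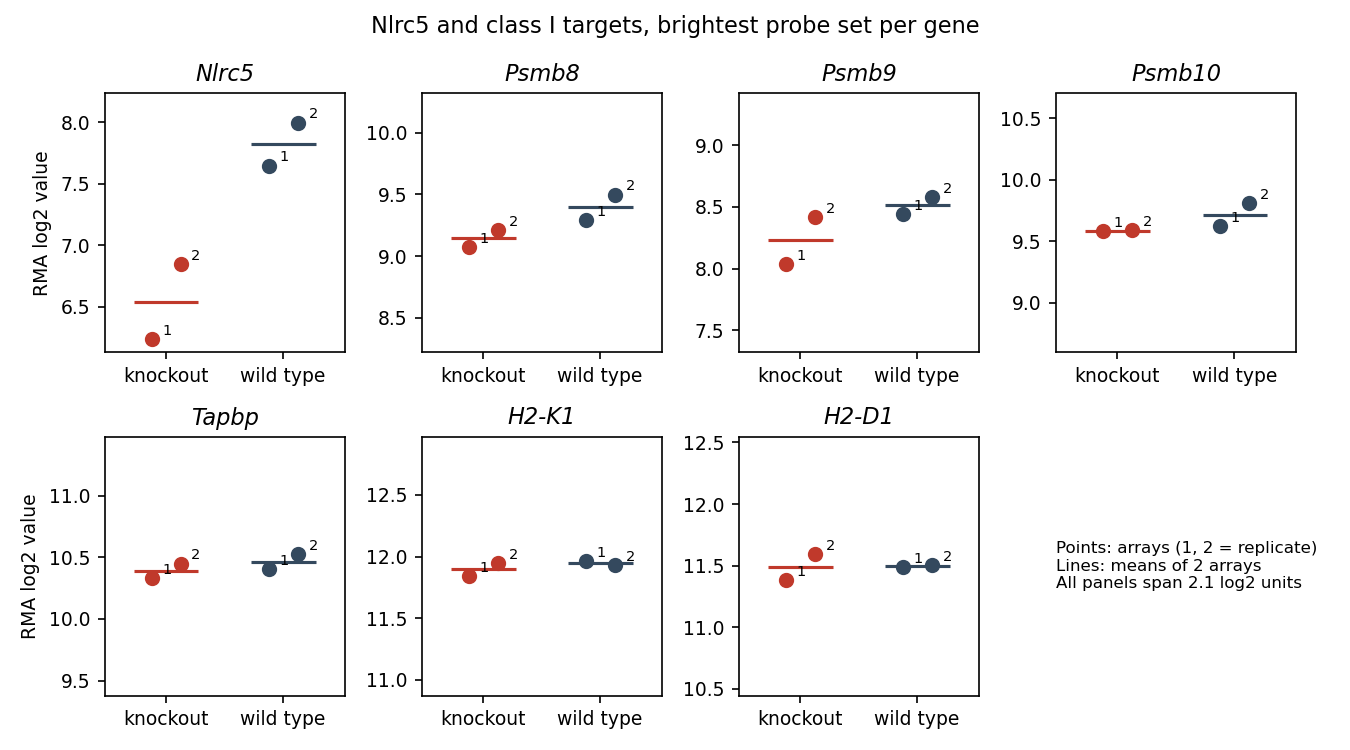
RMA log2 values of Nlrc5 and the 6 measured targets, each by its brightest probe set, in 2 knockout and 2 wild-type arrays (points, numbered by replicate) with group means (lines). Nlrc5 spans 1.75 log2 units over the arrays, Psmb9 0.55 and the other targets 0.12 to 0.42 on axes of equal length.

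The 3 catalytic subunits of the immunoproteasome, which replace their constitutive counterparts after interferon exposure, lay lower in knockouts. Psmb9 had log2 values of 8.04 and 8.42 in knockouts and 8.45 and 8.58 in wild types by its brightest probe set, a difference of -0.29 (SE 0.14). Its second probe set had 7.22 and 7.60 against 7.73 and 8.03, a difference of -0.47 (SE 0.16), or 1.39-fold lower in knockouts. In both, knockout 1 was the lowest array and wild type 2 the highest. A further dim set, at 4.44 to 4.72, had -0.10 with overlapping genotypes.

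Psmb8 had 9.08 and 9.21 in knockouts against 9.29 and 9.50 in wild types, a difference of -0.25 (SE 0.10). The genotypes did not overlap, and the arrays stood in the order seen for Psmb9. The dim second set of Psmb8, at 4.04 to 4.26, had -0.09 (SE 0.09) and overlapped. Psmb10 had 9.58 and 9.59 in knockouts against 9.62 and 9.81 in wild types, a difference of -0.13 (SE 0.09). Only wild type 2 stood clear of the other 3 arrays, and without it the difference was -0.03. Without knockout 1 the difference of Psmb9 was -0.09 by its brightest set and -0.28 by its second. Without wild type 2 the difference of Psmb8 was -0.15. By the brightest sets the differences within the pair of high hair follicle signal were -0.55 for Psmb9, -0.42 for Psmb8 and -0.23 for Psmb10. Within the low pair they were -0.03, -0.08 and -0.03. The second Psmb9 set had 7.22 in knockout 1 against 8.03 in wild type 2, the high pair. In the low pair it had 7.60 in knockout 2 against 7.73 in wild type 1.

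Tapasin and the class I heavy chains showed no such separation by their brightest probe sets. Tapbp had 10.33 and 10.45 in knockouts against 10.40 and 10.53 in wild types, a difference of -0.08 (SE 0.08), and its dimmer set had 6.61 and 6.94 against 6.57 and 6.89, a difference of 0.05. In both sets of Tapbp the genotypes overlapped, and knockout 2 and wild type 2 were above the other arrays. H2-K1 had 11.84 and 11.95 in knockouts against 11.96 and 11.93 in wild types, a difference of -0.05 (SE 0.07). H2-D1 had 11.38 and 11.60 against 11.49 and 11.50, a difference of -0.01 (SE 0.09). Knockout 1 was the lowest array for both heavy chains, while knockout 2 was level with the wild types or above them. Without knockout 1 the difference was 0.003 for H2-K1 and 0.10 for H2-D1.

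The other probe sets of H2-K1 had a wider spread of differences than those of H2-D1. The 3 further sets of H2-K1 had differences of -0.24, -0.15 and -0.04. The set at -0.24 (SE 0.11) had 6.62 and 6.92 in knockouts against 6.98 and 7.04 in wild types and was the only heavy-chain set without overlap. The 4 further sets of H2-D1, at log2 levels of 3.77 to 5.35, had differences of -0.09 to 0.01. The nonspecific control probe sets had array medians of 3.26 to 3.28, and 90% of them had means below 4.40, so the dimmest H2-D1 sets lay among them. Of the 9 heavy-chain sets 8 carry the suffix by which the manufacturer marks probes that can also match related transcripts, and the heavy-chain genes are near copies, so their values cannot be assigned to 1 gene with certainty. A further 5 sets annotated to H2-K1, H2-D1 and LOC547349 at once were left out by the rule. These had differences of -0.15 to 0.06, all with overlapping genotypes.

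**Figure D2:**
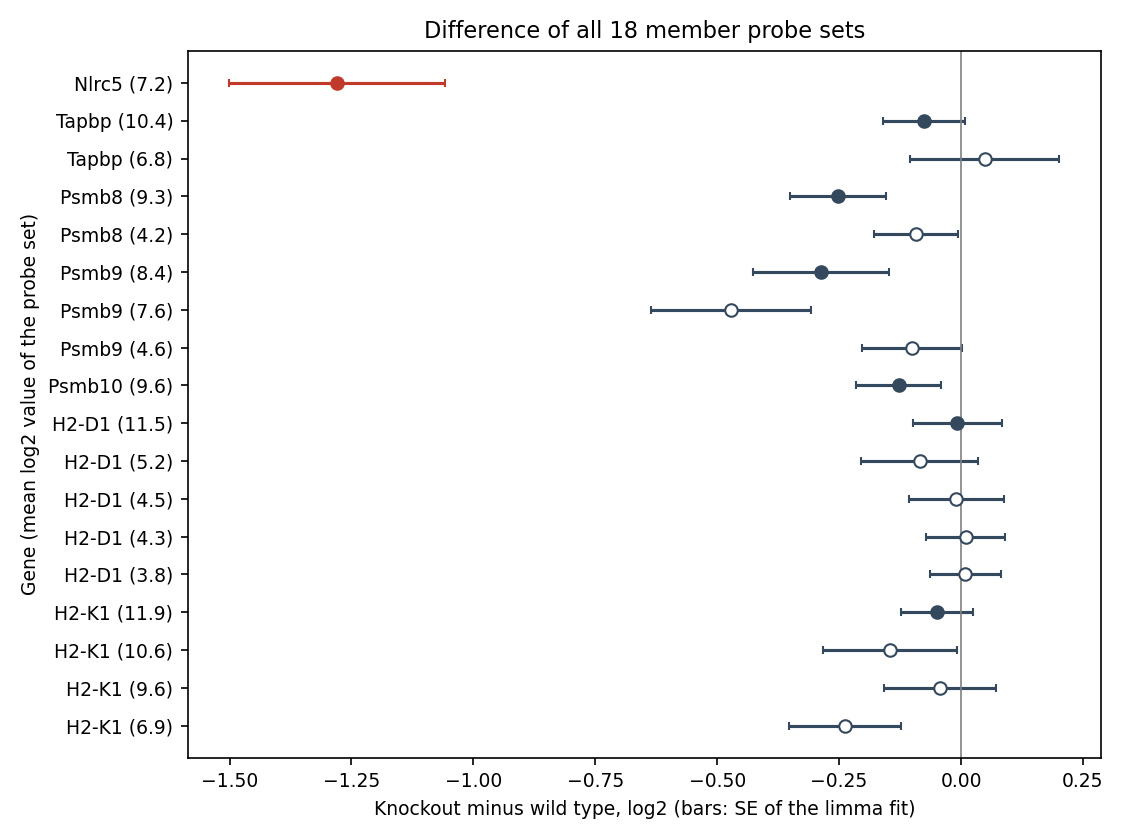
Difference of knockout and wild type on the log2 scale for the 18 member probe sets (points; filled for the brightest set of a gene, open for others), with the SE of the limma fit as bars and the mean log2 value of each set in brackets. Nlrc5 stands at -1.28, the immunoproteasome sets between -0.47 and -0.09, and the sets of Tapbp, H2-D1 and H2-K1 between -0.24 and 0.05.

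In all, 15 of the 18 sets lay below 0, and in 6 of them both knockout arrays were below both wild-type arrays, where 18.6% of all probe sets had such a separation. Counted by gene, 3 of 6 targets were separated in this way (Psmb8, Psmb9 and Psmb10), against 19.4% of all genes. Nothing is read from these counts, because the contrast was known when the genes were chosen. The median difference of the 6 targets was -0.10, beside -0.002 over all genes. Leaving out wild type 2 gave -0.05, knockout 1 -0.06, knockout 2 -0.13 and wild type 1 -0.18.

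Whether the targets follow Nlrc5 was read from the order of the 4 arrays, since 4 arrays are too few for a correlation. From low to high, Nlrc5 ran knockout 1, knockout 2, wild type 1, wild type 2. By their brightest probe sets the 3 immunoproteasome subunits had this same order, and Tapbp, H2-K1 and H2-D1 did not. Over all genes 7.09% had it. Part of this shared order rests on near ties. Psmb10 had 9.58 in knockout 1 and 9.59 in knockout 2, and Psmb9 had 8.42 in knockout 2 and 8.45 in wild type 1. With quantile normalization 2 of the 6 targets had the order. Of the 17 target probe sets 5 had the order of Nlrc5, among them the H2-K1 set with a difference of -0.24. Knockout 1 was the lowest array in 6 of 6 targets, as in 28.3% of all genes. Wild type 2 was the highest array in 4 of 6, the exceptions being H2-D1 (knockout 2) and H2-K1 (wild type 1), as in 28.7% of all genes. Over all 17 target probe sets 15 were lowest in knockout 1, 8 were highest in wild type 2 and 7 were highest in knockout 2. Of the sets highest in knockout 2, 6 were heavy-chain sets. These counts are a description only, because the order of Nlrc5 holds the contrast that was known when the genes were chosen.

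By their brightest probe sets the targets moved much less than Nlrc5. The range over the arrays was 31.2% of that of Nlrc5 in Psmb9, 24.1% in Psmb8, 12.9% in Psmb10, 12.1% in H2-D1, 11.3% in Tapbp and 6.63% in H2-K1. RMA compresses differences of dim probe sets, and the probe sets differ in brightness, so these shares compare measured differences and not transcript numbers. They also depend on the probe set. Against a range of 1.75 in Nlrc5, the second Psmb9 set had 0.82 and its dim set 0.28. The further H2-K1 sets had 0.31 to 0.42, the further H2-D1 sets 0.10 to 0.31. The dimmer Tapbp set had 0.37 and the dim Psmb8 set 0.22. The steps between arrays, by the brightest sets, also differed. From knockout 1 to knockout 2 Nlrc5 was 0.60 higher, Psmb9 0.38, H2-D1 0.21 and Psmb10 0.01. From wild type 1 to wild type 2 Nlrc5 was 0.35 higher, Psmb8 0.21, Psmb10 0.19 and H2-D1 0.01, while H2-K1 was 0.03 lower. The 2 knockout arrays alone ranked Psmb9 and H2-D1 nearest to Nlrc5 in size, and the 2 wild-type arrays alone Psmb8 and Psmb10.

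**Figure D3:**
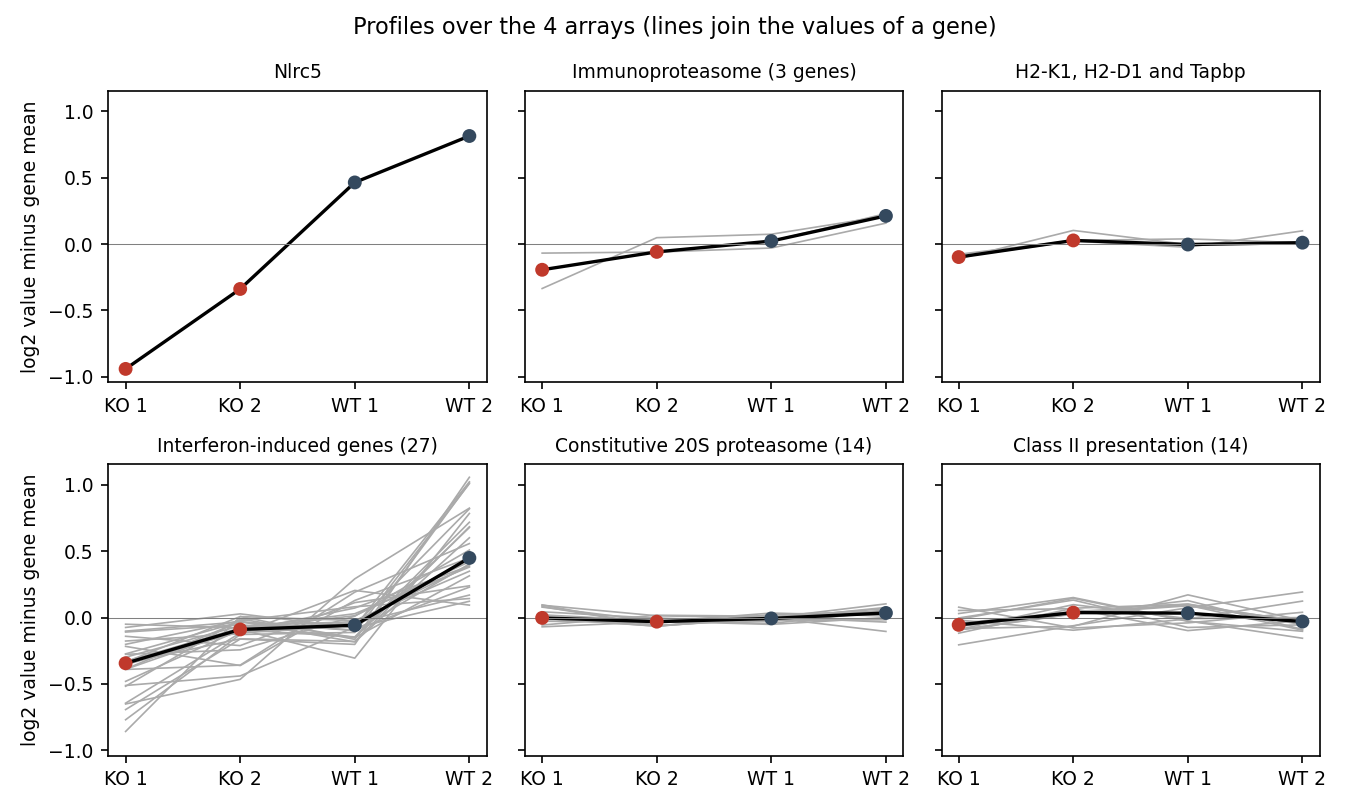
Log2 values of each gene minus its mean over the 4 arrays (grey lines join the values of a gene; points and black line are medians of the group) for Nlrc5, its measured targets in 2 groups, and 3 further gene lists. Nlrc5 runs from -0.94 to 0.81, the interferon-induced genes have medians from -0.34 in knockout 1 to 0.45 in wild type 2, and the constitutive proteasome and class II lists have medians between -0.06 and 0.04.

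The rest of the class I pathway was taken from lists of related genes. Of 121 measured genes in 10 such lists limma called 0, against 0.00585% of all genes. At an unadjusted p under 0.05 there were 15, all lower in knockouts (limma, smallest adjusted p 0.651), and 11 of them were interferon-induced genes. Over all genes 7.01% had such a p, and 3.38% had it with the knockout lower. No difference in the following paragraphs passed the test, and they are given as values.

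The constitutive proteasome subunits that Psmb8, Psmb9 and Psmb10 replace had small differences, Psmb5 of 0.11, Psmb6 of -0.03 and Psmb7 of 0.05, each with a SE of 0.07. The 14 subunits of the constitutive core ran from -0.10 (Psma6) to 0.11, with a median of -0.02. Psma1 had -0.07 and Psma5 -0.07. The interferon-inducible proteasome activator subunits Psme1 and Psme2 lay lower in both knockouts. Psme1 had 11.07 and 11.10 in knockouts against 11.18 and 11.37 in wild types (-0.19, SE 0.09), and Psme2 had 11.17 and 11.12 against 11.27 and 11.33 (-0.15, SE 0.07). Psme3, the nuclear activator, had 0.21 (SE 0.11), and Pomp, the proteasome assembly factor, had -0.05. Psme1 shared the array order of Nlrc5.

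Of 10 measured genes of peptide loading and trimming 7 lay above 0 (median 0.03). The chaperone calnexin (Canx) had -0.14, the disulphide isomerase Pdia3 had 0.18, the chaperone Hspa5 had 0.16 and the trimming peptidase Erap1 had -0.09. The set of Pdia3 was dim, at 4.51 to 4.82. None of the 10 had the order of Nlrc5 or knockout 1 as the lowest array.

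Among 13 other measured H2 class I chains 10 lay below 0 (median -0.05). By limma 2 passed an unadjusted p of 0.05, both lower in knockouts. H2-Q4 had 4.63 and 4.85 in knockouts against 5.19 and 5.37 in wild types, a difference of -0.54 (SE 0.11), and was the only one with the order of Nlrc5. H2-Q10, a secreted class I molecule, had 5.95 and 6.26 against 7.02 and 6.55, a difference of -0.68 (SE 0.19). H2-T23, the ligand of an inhibitory receptor of NK cells, had 9.43 and 9.76 against 9.26 and 9.99, with a difference of -0.03 (SE 0.26). H2-Bl had 0.12 and H2-Q1 had 0.07. Of these 13 chains 5 had means below 4.40, among the nonspecific controls, and as near copies of each other they share the uncertainty of H2-K1 and H2-D1. Among 6 class I-like molecules (median -0.08) Azgp1 had -0.19, Cd1d2 had -0.12, Hfe had 0.15 and the neonatal Fc receptor Fcgrt had -0.10. Cd1d2 lay at 4.04 to 4.19, among the nonspecific controls.

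Class II presentation, which is driven by Ciita, a close relative of Nlrc5, had 7 of 14 genes below 0 and 6 above (median -0.02), and H2-Oa, named after its value was seen, had equal means. Ciita had 4.32 and 4.41 in knockouts against 4.46 and 4.27 in wild types, a difference of 0.002 (SE 0.09), at a level among the nonspecific controls. The lysosomal protease Ctss had -0.27 (SE 0.09), H2-DMb2 had 0.18, H2-Eb2 had 0.12 and H2-Ob had 0.13. H2-Ob lay at 4.03 to 4.24, also among the nonspecific controls. The 8 other measured NLR family genes ran from -0.12 (Nlrx1) to 0.17 (Naip5), with Nod1 at -0.11 and Nlrp3 at -0.05. None came near the difference of Nlrc5, but 3 of the 8 had means below 4.40, among the nonspecific controls, where differences are compressed. The factors that recruit Nlrc5 to promoters had 4 of 9 genes below 0 (median 0.004), with Rfx5 at 0.004, Crebbp at -0.13, Nfyb at -0.12, Atf1 at -0.14 and Rfxank at 0.09.

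Interferon signalling genes had a median of -0.04 over 16 measured members. Ifng itself was at 3.55 to 3.66, near the nonspecific controls, in all arrays. Irf1, which binds the interferon response elements of class I promoters, had 8.25 and 8.42 in knockouts against 8.37 and 8.44 in wild types (-0.07, SE 0.08). Irf8 had -0.27, Irf9 had -0.37, Stat2 had -0.17 and the kinase Tyk2 had 0.13. The genes that interferons induce were the list with the lowest median difference. All 27 measured members lay below 0, 15 of them without overlap of the genotypes (against 19.4% of all genes), and 11 had the array order of Nlrc5 (against 7.09%). Wild type 2 was the highest array in 26 and knockout 1 the lowest in 22. The lists were chosen with earlier results of these data known, so these counts are given as a description.

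The immunity-related GTPases Iigp1 and Igtp had the differences of smallest p in that list. Iigp1 had 8.56 and 8.74 in knockouts against 9.50 and 10.03 in wild types (-1.12, SE 0.19), and Igtp had 6.98 and 7.02 against 7.57 and 7.93 (-0.75, SE 0.13). Irgm2, of the same family, had -0.58 (SE 0.13) and the antiviral GTPase Mx1, at 3.72 to 4.17 among the nonspecific controls, had -0.35 (SE 0.08). The list median was -0.46, and it was -0.23 without wild type 2 and -0.74 without wild type 1. Within the pair of high hair follicle signal the list median was -0.77, and within the low pair it was -0.03. Nlrc5 had -0.80 in that low pair, which holds 1 array of each genotype, and its distance from the list there was not tested.

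**Figure D4:**
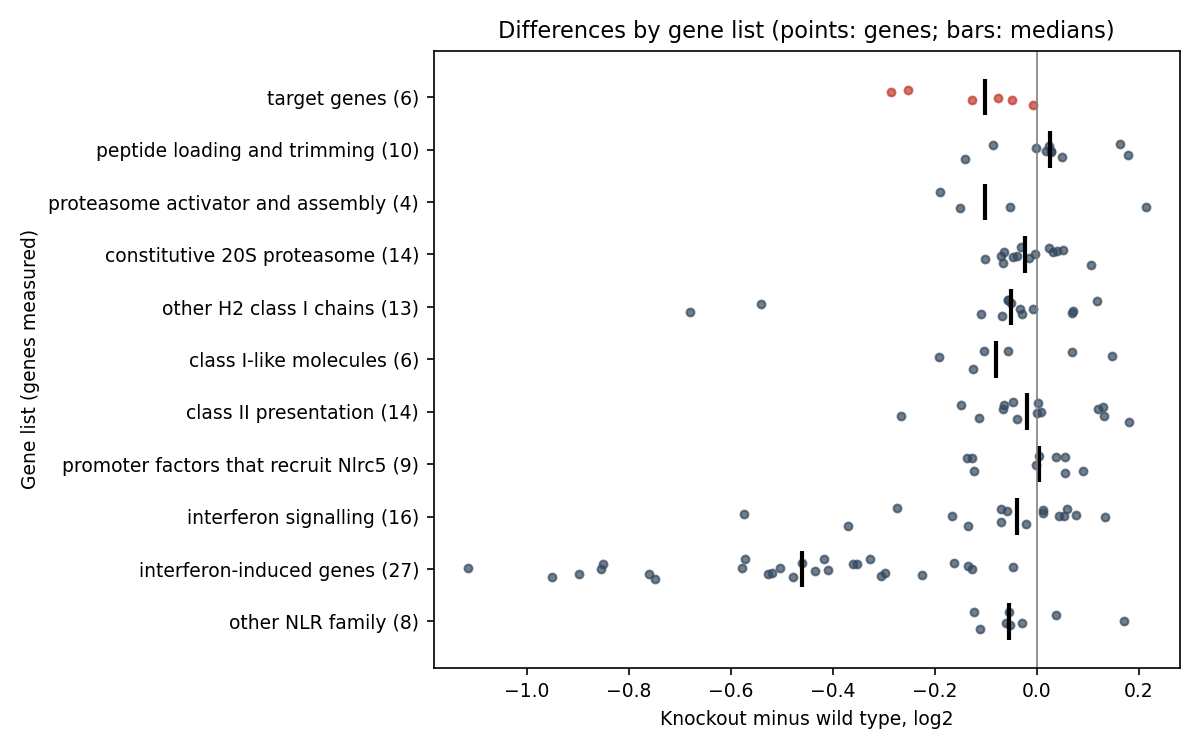
Difference of knockout and wild type on the log2 scale for each measured gene (points) of the target list and of 10 related lists, with list medians (bars). The interferon-induced genes have a median of -0.46 and all other lists medians between -0.10 and 0.03.

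Class I genes are most abundant in leukocytes, and in whole tissue fewer cells of a type and less RNA per cell cannot be told apart. Of 5 pan-leukocyte markers 4 lay below 0 (median -0.09), and 4 were lowest in knockout 1. The summed linear level of these 5 was 1568 and 1777 in knockouts against 1795 and 1743 in wild types. Ptprc, the common leukocyte antigen CD45, had 8.20 and 8.39 against 8.52 and 8.48, a difference of -0.21 (SE 0.09). None of the 5 was among the nonspecific controls.

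Macrophage markers had 8 of 8 below 0 (median -0.08), with summed levels of 3988 and 4200 in knockouts against 4575 and 4164 in wild types. Among them Fcgr1, an Fc receptor that interferon gamma also induces, had 5.78 and 5.92 against 6.14 and 6.96, a difference of -0.70 (SE 0.27), with the order of Nlrc5. NK cell markers had 7 of 7 below 0 (median -0.11), at summed levels of 135 and 138 against 154 and 146, and 3 of them, among which Ncr1 and Klrb1c, were among the nonspecific controls. T cell markers had 6 of 7 below 0 (median -0.04; summed levels 278 and 283 against 298 and 285; 3 among the controls). B cell markers lay the other way, with 5 of 5 above 0 (median 0.13; summed levels 189 and 191 against 143 and 162). Dendritic cell markers had 2 of 5 below 0 (median 0.07), with summed levels of 203 and 207 against 193 and 208. Of the macrophage, B cell and dendritic cell markers, 1 in each list was also among the nonspecific controls.

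Markers of the lymph node, which lies in the inguinal fat pad, had 2 of 5 below 0 (median 0.02), with summed levels of 202 and 193 in knockouts against 225 and 209 in wild types. Of these 5 lymph node markers 2 were among the nonspecific controls. Endothelial markers had 6 of 7 above 0 (median 0.18), with summed levels of 5502 and 6724 against 5470 and 5283. Fibroblast markers had 5 of 6 above 0 (median 0.10; 19581 and 20243 against 19334 and 17713). Adipocyte markers were split, 2 of 4 on each side (median -0.01; 23335 and 24596 against 24395 and 23907). Luminal and basal epithelial markers had 6 of 6 and 5 of 5 below 0, with medians of -0.23 and -0.27 and summed levels of 2743 and 2500 against 3194 and 2997, and of 4503 and 4610 against 4910 and 4770. The limma fit called 0 markers of any of these lists, and the part of these cell types in the values of Nlrc5 and its targets was not tested.

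The genes whose profile over the 4 arrays lay nearest to that of Nlrc5 were sought among 656 genes brighter than the median gene with a range of at least 0.5 log2. Likeness was the Euclidean distance between the 4 values after subtracting each gene's mean. The nearest were the sialyltransferase St3gal6 (distance 0.336), the annexin Anxa8 (0.347), Iigp1 (0.36), the apolipoprotein Apoc4 (0.361) and the acyl-CoA thioesterases Acot1 (0.378) and Acot2 (0.492). St3gal6 had means of 10.25 ± 0.36 in knockouts and 11.20 ± 0.28 in wild types (SD, n = 2 each). All 6 had lower values in both knockouts, which follows from choosing them by likeness to Nlrc5 and is not a result. Iigp1 was the only one of the 6 in the lists of class I and interferon genes. The targets were farther away, from 1.02 for Psmb9 and 1.08 for Psmb8 to 1.31 for H2-K1 and 1.32 for H2-D1, and only Psmb9 had a range that met the limit. The values were not scaled, so a gene with a small range lies far from Nlrc5 even with the same order of arrays, as Psmb8 and Psmb9 have.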

How the data were processed

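From 200 ng total RNA per sample, biotinylated RNA was made for Affymetrix 3′ arrays. The authors deposited 1 log2 value per probe set and array. The submitters' processing notes list affy and RMA, without versions. RMA forces the arrays to one distribution, so changes shared by most genes are removed. Array medians lay between 5.19 and 5.21, and the number of arrays limits the precision (median SE 0.080).

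Of 45141 probe sets 104 were controls. The platform annotation gave 1 symbol to 28898 sets and several to 551, and did not list 15588. Of the symbols 99.3% matched RefSeq (GRCm38.p6) by gene ID, which was used for names and gene order only. For lists, a gene was taken by its probe set of highest mean (17097 genes). Knockout and wild type were compared with limma 3.58.1 (R 4.3.3; lmFit, then eBayes; two-sided tests) and Benjamini-Hochberg adjustment over all genes, and in a second fit over all probe sets. Steps were tested on simulated data. The members and gene lists were chosen with earlier results of these data known.

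Genes named beside the members are the up to 4 of smallest p in each pathway list, a set group of pathway genes (among them Ciita, Irf1, Psmb5, Psmb6, Psmb7, Psme1, Psme2, Rfx5, H2-T23), the 6 nearest profiles and the 5 neighbours on each side. Markers and lists other than pathways, and the pairs by hair follicle signal, are named where they touch a result. Same-numbered arrays of the genotypes deviated in opposite directions (r = -0.48 across genes), so the numbers were not taken as pairs. Alternatives are given in the closing section.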

Additional observations from a re-analysis of the deposited data

How the results depend on the processing

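With any 1 array left out, limma called 0 to 1 genes, against 1 in the main fit. Averaging all probe sets of a gene gave 0 calls (1185 at an unadjusted p under 0.05, against 1198 in the main fit), testing every probe set gave 2 and robust variances gave 2. Without wild type 1 the called gene was Lep, named after its value was seen, and the settings with 1 array left out had 837 to 1510 genes at an unadjusted p under 0.05. With the replicate number as a block limma called 0 genes (1185 at an unadjusted p under 0.05), and with the crossed pairing, chosen after seeing the data, 0 (1064). An intensity trend, brighter genes only, median centring or quantile normalization each gave 1. The number of targets with the array order of Nlrc5 was 3 to 5 with 1 array left out (18.3% to 21.8% of all genes then share the order of 3 arrays) and 2 with quantile normalization. The difference of Nlrc5 stayed between -1.58 and -0.98. With no array left out, 42 of 43 alternative values of the member probe sets moved by less than the replicate SD, and H2-K1 was at -0.12 with the mean of its sets. Of the list medians 88 of 94 did. Those that moved further did so with brighter genes only. The class I-like median was then 0.01 and that of interferon signalling 0.01. The medians of other NLR genes, dendritic cells, T cells and the lymph node were then -0.12, -0.03, -0.10 and -0.05. Leaving out 1 of 2 arrays cannot move a probe set's difference by more than the replicate SD, so those values are not counted here. List medians with 1 array left out are not counted either, though they can move further. The class I-like median was 0.03 without knockout 1, and that of interferon signalling was 0.02 without wild type 1. An order with another probe set of Nlrc5 could not be run, as 1 set was named.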

Other observations

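Of the 19 measured genes between Nlrc5 and Mmp15 on chromosome 8, 8 were higher in both knockouts than in both wild types and 1 was lower, against 18.2% and 19.4% of all genes, and limma called 0. Ciapin1, a cytosolic iron-sulphur assembly factor, had log2 values of 9.29 and 8.79 in knockouts against 8.18 and 8.11 in wild types, a difference of 0.89 (SE 0.17). The kinesin Kifc3 had 7.77 and 7.77 against 7.07 and 7.32, a difference of 0.58 (SE 0.10). Both were named after their values were seen. The chemokine genes of this stretch had small differences, Cx3cl1 of -0.11, Ccl22 of 0.05 and Ccl17 of -0.04.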
